A study of Mus musculus with 60 samples.

Results

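Subcutaneous white adipose tissue (scWAT) was compared with visceral white adipose tissue (vWAT) of the same 5 sedentary mice on a high-fat diet (HFD). The set was 10 of the 60 bulk libraries of the series, chosen by tissue and treatment and paired through the animal codes in the sample titles, and the mice are numbered 1 to 5 by their replicate labels. The animals were C57BL/6JN, 12 weeks old, had eaten a diet with 60% of its energy from fat for 6 weeks and had spent the last 3 weeks without training. Tissue was collected after 6 h without food, with running wheels locked for 24 h beforehand. HFD mice with access to wheels for those 3 weeks and sedentary mice on chow with 10% of energy from fat, 5 of each, were used to ask whether a depot difference was also there in other mice. The labels do not name the visceral pad. RNA was counted by 3′ digital gene expression, a method that reads the 3′ end of each transcript.

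White fat stores triglyceride in adipocytes and is also a hormone-secreting organ. Fat under the skin and fat around the abdominal organs arise from different embryonic progenitors, keep different developmental transcription factors as adults and are lined differently, since only visceral fat carries a mesothelium. In obesity, visceral fat of mice is the depot known for macrophage accumulation, while subcutaneous fat is the one that more readily takes on mitochondria-rich beige adipocytes.

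Total counts ran from 618339 to 706976 in scWAT and from 620103 to 689060 in vWAT, so that 3 counts, the limit that a count of 0 allows, were 4.24 to 4.85 CPM (counts per 1000000 counts), for counting error alone. Adipocyte markers such as Adipoq were abundant in all 10 libraries. Lymph node stroma genes gave 4 to 21 counts in the scWAT libraries and 5 to 181 in the vWAT libraries. In vWAT they were highest in mice 1 and 4, at 181 and 118. Other organs were present in some libraries, as their defining genes show. Of 15 skeletal muscle markers the scWAT libraries of mice 1 to 5 held 324, 5009, 7552, 43920 and 636 counts and the vWAT libraries 119, 80, 122, 113 and 2146. The vWAT library of mouse 5 held 277 counts of intestinal genes against at most 13 in any other, and that of mouse 4 held 414 counts of epididymis and testis genes against at most 9. Liver genes gave 6227 counts in the vWAT library of mouse 3 and at most 1936 elsewhere. All scWAT libraries carry codes from a different range than the vWAT libraries, so depot and the handling of the libraries cannot be told apart. Within each depot the codes of mice 1 and 2 follow one another, as do those of mice 3, 4 and 5, with a gap between these groups of codes. What the groups stand for is not stated.

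**Figure D1:**
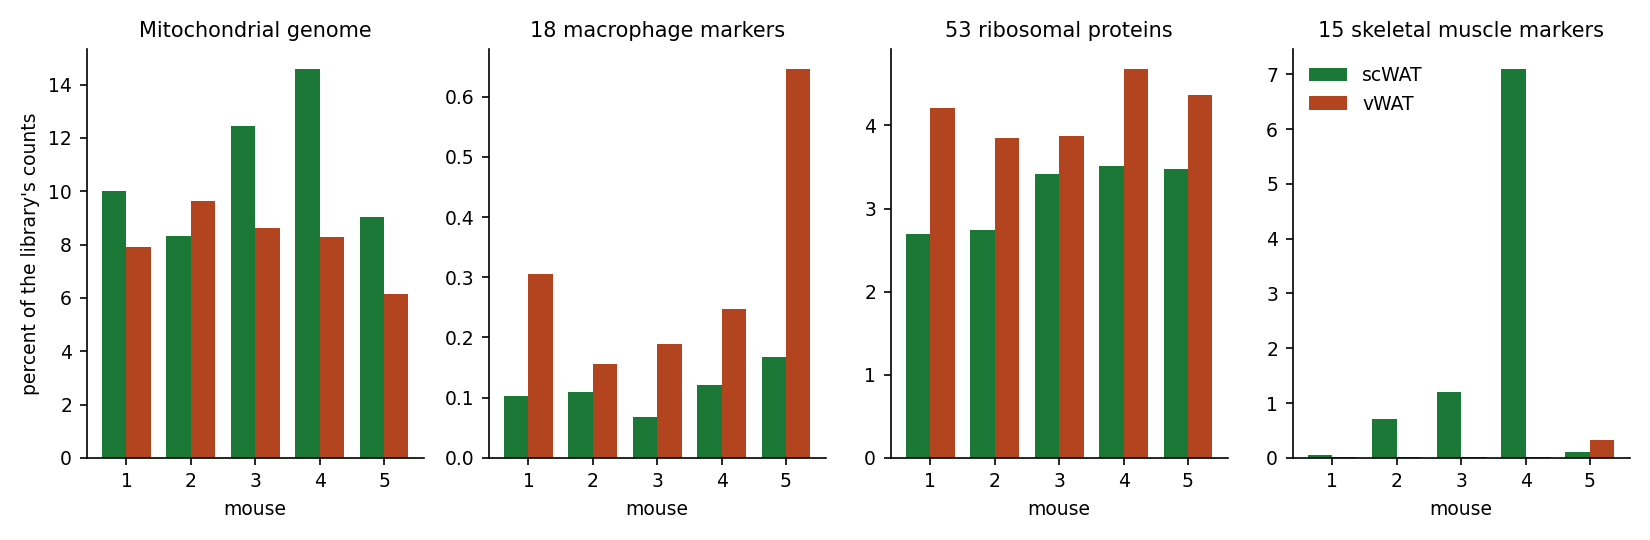
Share of each library's counts, in percent, taken by the mitochondrial genome, 18 macrophage markers, 53 ribosomal protein genes and 15 skeletal muscle markers, with 1 bar per library for the 5 mice (scWAT green, vWAT brown). Macrophage and ribosomal protein shares were higher in vWAT in 5 of 5 mice, and the muscle share stands out in the scWAT library of mouse 4.

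Of 6405 genes tested, 581 differed between the depots at an adjusted p under 0.05 (edgeR's quasi-likelihood test with the mouse as a block, Benjamini-Hochberg over all genes tested). Higher expression in scWAT was called for 199 genes (3.11% of those tested) and higher expression in vWAT for 382 (5.96%). The median log2 difference, scWAT minus vWAT throughout, was 0.01 over all genes tested. Differences of at least 2-fold were found for 39 of the genes higher in scWAT and 121 of those higher in vWAT. CPM values of the depots did not overlap for 281 of the 581, against 406 of all 6405 tested (6.34%). Of the 581, 508 were higher in the same depot in 5 of 5 mice. The calls come from a paired test in these mice, so this agreement is favoured in advance and is no separate support. Without the block for mouse 283 genes were called, 280 of them among the 581, and leaving out mouse 1, 3 or 5 left 225, 308 or 347. On total counts instead of TMM scaling, which moved log2 differences by 0.06, the split was 142 higher in scWAT and 454 in vWAT, against 199 and 382.

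**Figure D2:**
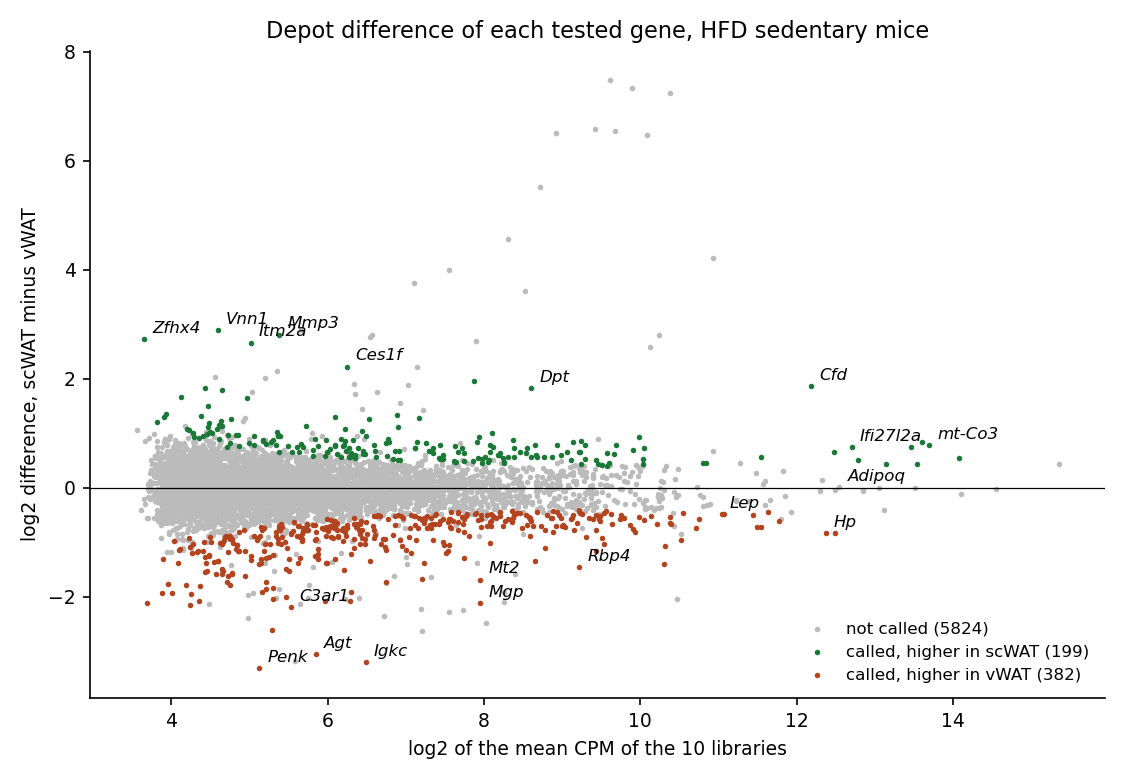
Log2 difference (scWAT minus vWAT) against the log2 of the mean CPM over the 10 libraries for the 6405 genes tested, with called genes in colour. The 199 genes higher in scWAT include Vnn1, Mmp3 and Cfd, the 382 higher in vWAT include Agt, Mgp and Rbp4, and the uncoloured points far above 2 include skeletal muscle genes, which differ widely among mice.

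Dpt, Ces1f, Vnn1, Mmp3, Itm2a and Cfd were among the 15 genes most clearly higher in scWAT. Dpt encodes dermatopontin, a matrix protein that binds collagen fibrils (chromosome 1, 164796644 to 164824266, mm10). It stood at 878, 680.4, 553, 382 and 529 CPM in scWAT of mice 1 to 5 and at 169, 205, 163, 134 and 191 CPM in vWAT. Every scWAT value lay above every vWAT value, and the log2 difference was 1.83 ± 0.14 (SE, n = 5 mice, edgeR adjusted p = 3.86e-07). Ces1f, a carboxylesterase (chromosome 8, 93256236 to 93279747), stood at 186, 136, 187, 50.1 and 68.6 CPM in scWAT and 20.9, 32.3, 45.2, 23.2 and 13.5 in vWAT. Here too the depots did not overlap, although mice 4 and 5 were lowest in scWAT, and the difference was 2.22 ± 0.22 (adjusted p = 4.18e-06). Vnn1, which encodes the pantetheinase vanin-1 (chromosome 10, 23894688 to 23905343), was at 58.6, 46.7, 50.7, 19.4 and 37.4 CPM in scWAT and at 7.47, 9.68, 6.02, 2.9 and 2.99 CPM in vWAT, where mice 4 and 5 were under the limit for a count of 0. That difference of 2.89 ± 0.29 (adjusted p = 7.02e-06) also came without overlap. Mmp3 encodes the matrix protease stromelysin-1 (chromosome 9, 7445822 to 7455975). Its level was 64.5, 79.2, 60.2, 71.2 and 87.3 CPM in scWAT and 4.48, 6.45, 7.53, 8.71 and 28.4 CPM in vWAT, with mouse 5 the highest in both depots, and the difference was 2.81 ± 0.29 (adjusted p = 9.15e-06).

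Cfd, the gene of adipsin (complement factor D), an adipocyte product that activates the alternative complement pathway (chromosome 10, 79890853 to 79892655), varied widely among mice. Its CPM values were 8833, 10593, 10261, 3594 and 2433 in scWAT and 1537, 4396, 2582, 1724 and 552 in vWAT. Mouse 5 was lowest in both depots and the ranges overlapped, yet scWAT was higher in 5 of 5 mice, by 1.86 ± 0.17 on the log2 scale (edgeR adjusted p = 2.13e-05), and without the block the call was lost (adjusted p = 0.156). Itm2a, an integral membrane protein gene, was at 65.9, 58, 57, 61.5 and 35.9 CPM in scWAT and 5.98, 11.3, 4.52, 11.6 and 12 in vWAT, with no overlap and a difference of 2.66 ± 0.28 (adjusted p = 9.67e-06). The other genes among the 15 most clearly higher in scWAT by adjusted p were Slc1a3 (a glutamate and aspartate transporter, 1.27 on the log2 scale), Mccc2 (leucine breakdown, 1.26), Gstt1 (a glutathione transferase, 1.33), Mme (the peptidase neprilysin, 1.29), Fmo1 (a flavin monooxygenase, 1.12), Zfhx4 (a zinc finger homeobox factor, 2.72), Ccdc3 (1.65), Slc27a1 (a fatty acid transporter, 1.07) and Ndufaf5 (a complex I assembly factor, 1.79). Of these 15, Cfd and Ndufaf5 (adjusted p = 0.113) lost their call without the block.

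**Figure D3:**
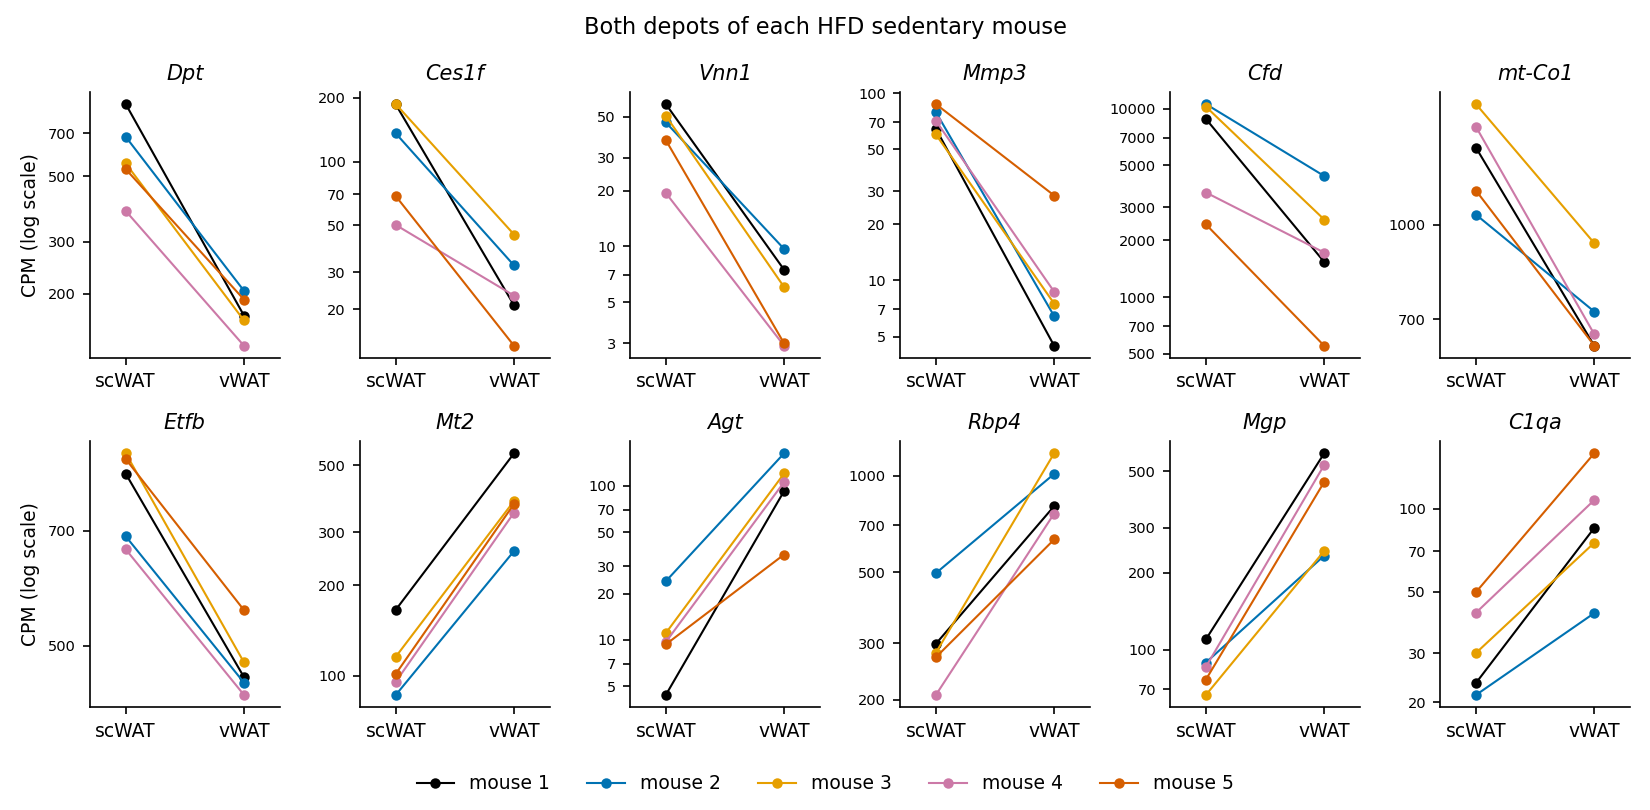
CPM on a log axis for 12 genes in scWAT and vWAT, with 1 line per mouse joining its depots. Lines fall for Dpt, Ces1f, Vnn1, Mmp3, Cfd, mt-Co1 and Etfb and climb for Mt2, Agt, Rbp4, Mgp and C1qa in all 5 mice.

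Genes of mitochondrial energy metabolism were called higher in scWAT in 5 lists. Called higher in scWAT were 8 of 13 protein genes of the mitochondrial genome, 25 of 76 nuclear genes of the respiratory chain, 8 of 19 of fatty acid oxidation, 11 of 23 of the tricarboxylic acid cycle and pyruvate entry, and 6 of 18 of branched-chain amino acid breakdown. These were 61.5%, 32.9%, 42.1%, 47.8% and 33.3% of the tested members, against 3.11% of all genes. The only member of these lists called higher in vWAT was Mpc2, a subunit of the mitochondrial pyruvate carrier (-0.51 ± 0.13, edgeR adjusted p = 0.0172), a call lost without mouse 1, 2, 3 or 4. Median log2 differences of the 5 lists were 0.51, 0.35, 0.47, 0.51 and 0.35 in that order, against 0.01 for all genes tested. Without the block for mouse the counts were 5, 15, 7, 10 and 5. The respiratory chain list fell to 7 without mouse 1, 10 without mouse 4, 15 without mouse 5 and 16 on total counts. The other lists gave 5, 4, 6 and 4 without mouse 1 and 4, 5, 9 and 5 without mouse 5.

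mt-Co1, a core subunit of cytochrome c oxidase encoded in the mitochondrion, was at 1339, 1039.6, 1579, 1449 and 1139 CPM in scWAT and 633, 721, 934, 662 and 634 CPM in vWAT. The depots did not overlap, and the difference was 0.93 ± 0.14 (SE, n = 5 mice, edgeR adjusted p = 0.000339). Differences for mt-Atp6 (0.75), mt-Co3 (0.78) and mt-Atp8 (1.03) were called as well, while mt-Cytb (0.54) lost its call without mouse 5 and without the block (adjusted p = 0.0825). Etfb, a subunit of the flavoprotein that passes electrons from fatty acid oxidation to the respiratory chain, was at 828, 689, 879, 663 and 864 CPM in scWAT and 456, 448, 476, 432 and 555 CPM in vWAT. All 5 scWAT values were above all 5 vWAT values (0.79 ± 0.12, adjusted p = 0.000601). Other called genes with the same sign were the following: 0.85 for Idh3a and 0.84 for Ogdh of the citric acid cycle, 0.74 for Pdha1 of pyruvate dehydrogenase, 0.73 for Sdhb of complex II, 0.79 and 0.72 for Ndufa5 and Ndufv2 of complex I, and 0.78, 0.64 and 0.65 for Acadvl, Acadm and Echs1 of beta-oxidation. In branched-chain amino acid breakdown the called genes besides Mccc2 included Ivd (0.84), Aldh6a1 (0.84) and Acat1 (0.64).

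Summed over its 13 protein genes, the mitochondrial genome took 8.84%, 7.43%, 8.36%, 9.76% and 6.57% of the counts in scWAT of mice 1 to 5 and 5.6%, 6.02%, 5.84%, 5.9% and 4.53% in vWAT. It was higher in scWAT in 5 of 5 mice, for which an exact sign-flip permutation test gives p = 0.0625, two-sided, the smallest that 5 pairs allow. For all mitochondrial genes the mean difference was 2.76 percentage points, higher in scWAT in 4 of 5 mice (exact permutation p = 0.125). Mitochondrial ribosomal RNA did not follow the protein genes: it took 1.16%, 0.897%, 4.09%, 4.83% and 2.45% in scWAT and 2.31%, 3.61%, 2.77%, 2.39% and 1.61% in vWAT. In scWAT it was lowest in mice 1 and 2, which share a group of library codes. Gm29216, chosen after its values were seen, an unprocessed pseudogene that resembles mitochondrial sequence, was higher in scWAT too (0.84 ± 0.12, edgeR adjusted p = 0.000276), and reads may be divided between it and the mitochondrial genes. Muscle, itself rich in mitochondria, gave the scWAT libraries of mice 2, 3 and 4 the counts listed above, and its part in the mitochondrial difference was not tested. Without mouse 4 the medians of the 5 lists were 0.37, 0.26, 0.52, 0.50 and 0.43. In mice 1, 2 and 3 the calls in the 5 lists were 1, 4, 6, 6 and 5, and the medians 0.35, 0.27, 0.58, 0.47 and 0.36. The scWAT libraries of mice 1 and 5 held 324 and 636 muscle counts and their vWAT libraries 119 and 2146. In these mice the medians of the 5 mitochondrial lists were 0.51, 0.31, 0.46, 0.56 and 0.64. The median of the muscle markers was -0.58 there, so this fit was not free of muscle, which lay toward vWAT. The fits in mice 1, 2 and 3 and in mice 1 and 5 were added after the data had been seen. In bulk tissue, fewer cells of a type and less RNA per cell cannot be told apart.

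**Figure D4:**
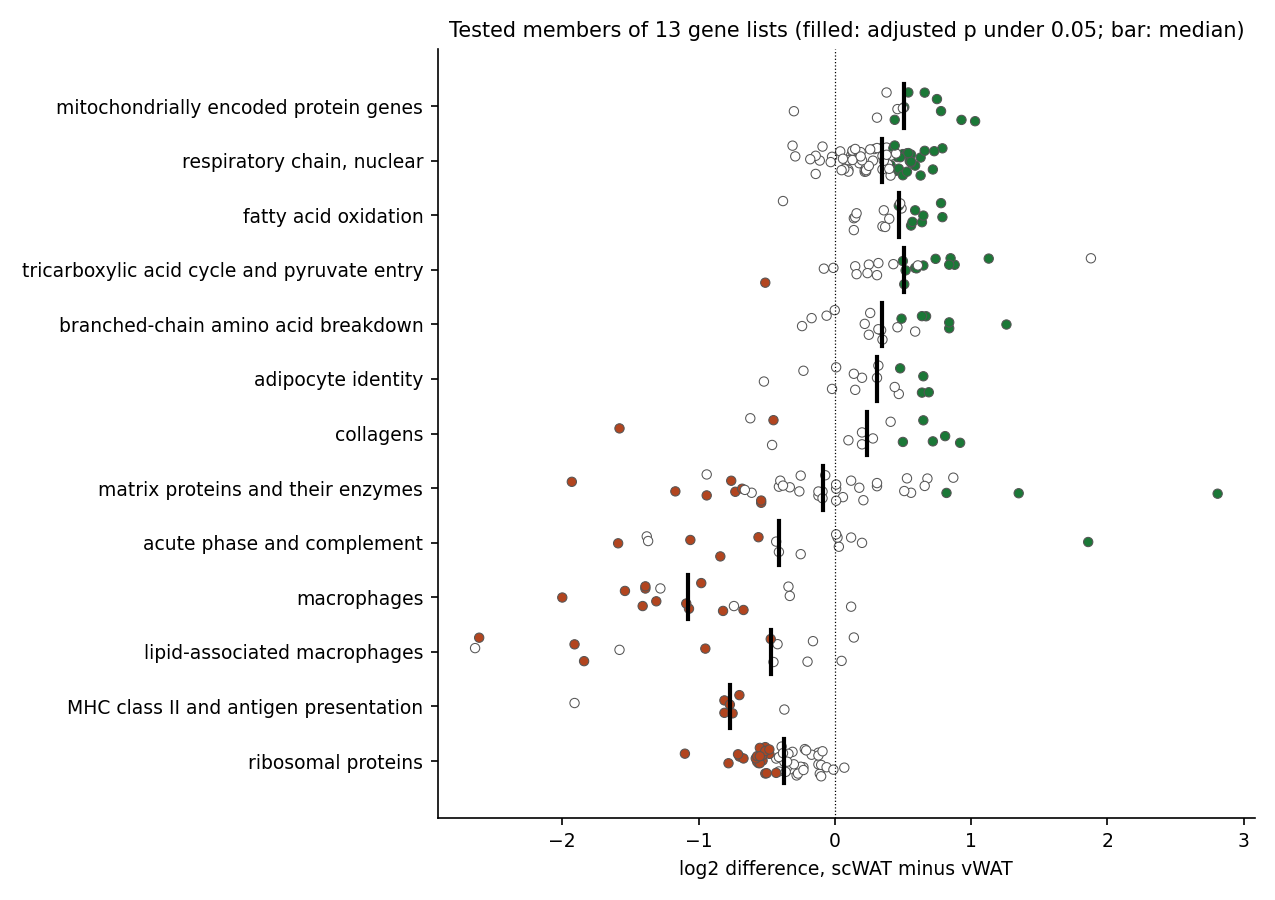
Log2 difference (scWAT minus vWAT) of each tested member of 13 gene lists, filled where the adjusted p was under 0.05, with the list median as a bar. The mitochondrial and amino acid lists lie to the right with medians of 0.35 to 0.51, and macrophage, antigen presentation and ribosomal protein lists lie to the left with medians of -1.08, -0.77 and -0.38.

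Of 15 tested adipocyte identity genes 4 were called higher in scWAT (26.7%, against 3.11% of all genes) and none in vWAT, with a median of 0.31. Plin4, a lipid droplet coat protein, was one that kept its call without the block (0.65 ± 0.13, adjusted p = 0.00404). Adipoq, the gene of adiponectin, was at 5897 ± 1266 CPM in scWAT and 6063 ± 985 in vWAT (SD, n = 5), a difference of 0.01 ± 0.12 with an adjusted p of 0.972 by edgeR. Neither Pparg (0.15 ± 0.13) nor Cebpa (0.31 ± 0.19), the adipogenic transcription factors, nor Slc2a4, the insulin-responsive glucose transporter (0.47 ± 0.24), passed the test. Genes of insulin signalling called higher in scWAT were Grb14 (1.26), Irs1 (1.13) and Trarg1 (0.79), 3 of 15 tested (20.0%, against 3.11% of all genes). Irs1 was lost without mouse 1, 3 or 4 and Trarg1 without mouse 1, 3, 4 or 5. In fatty acid synthesis, 16 genes were tested: Scd1 was called higher in scWAT (0.44), Scd2 (-0.51) and Thrsp (-0.55) higher in vWAT, and Fasn was at -0.10 ± 0.25 (adjusted p = 0.86). The called shares were 6.25% in scWAT and 12.5% in vWAT, against 3.11% and 5.96% of all genes. Scd1, Scd2 and Thrsp had adjusted p values of 0.558, 0.187 and 0.0617 without the block, so these calls rest on the pairing. Of triglyceride genes, Pck1 (0.78) and Gpd1 (0.48), which supply glycerol phosphate, were higher in scWAT and Dgat2 (-0.68), which adds the last fatty acid, was higher in vWAT. These calls were lost without the block (adjusted p = 0.451, 0.182 and 0.063) and also without mouse 1.

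Among 9 tested adipocyte hormone genes, Cfd and Nrg4 were higher in scWAT (22.2%, against 3.11% of all genes), and Agt, Rbp4 and Lep were higher in vWAT (33.3%, against 5.96%). Nrg4, a growth factor secreted by brown and white adipocytes, was at 85, 65.1, 98.2, 37.2 and 74.9 CPM in scWAT and 49.3, 25.8, 36.1, 34.8 and 22.4 in vWAT (1.13 ± 0.21, edgeR adjusted p = 0.00232). Only the lowest scWAT value reached into the vWAT range. Lep, the gene of leptin, which signals fat mass to the brain, was at 2010.1, 1458, 1029, 1313 and 2832 CPM in scWAT and 3019, 1537, 2025, 2424 and 3398 CPM in vWAT. It was higher in vWAT in 5 of 5 mice with ranges that overlapped widely, a difference of -0.49 ± 0.14 (adjusted p = 0.0307), and the call ended without the block (adjusted p = 0.336) and without mouse 1, 3, 4 or 5. Retn, the gene of resistin, was at 0.26 ± 0.18 (adjusted p = 0.458). Mest, a gene that marks expanding fat, was higher in vWAT (-0.75 ± 0.13, adjusted p = 0.00156, and 0.151 without the block).

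Agt encodes angiotensinogen, the precursor of the angiotensins (chromosome 8, 124556534 to 124569706). Its level was 4.4, 24, 11.1, 9.7 and 9.36 CPM in scWAT and 92.6, 163, 120.5, 106 and 35.9 CPM in vWAT. All vWAT values were above all scWAT values, though mouse 5 was the lowest in vWAT, and the difference was -3.06 ± 0.25 (SE, n = 5 mice, edgeR adjusted p = 4.18e-07). Rbp4, which encodes the plasma carrier of retinol (chromosome 19, 38116629 to 38125281), was at 299, 496, 280.3, 207 and 271 CPM in scWAT and 804, 1013, 1174, 762 and 632 CPM in vWAT, without overlap (-1.46 ± 0.15, adjusted p = 7.85e-06). Mgp encodes matrix Gla protein, an inhibitor of calcification (chromosome 6, 136872435 to 136875823). It stood at 109.9, 89.1, 66.5, 85.7 and 76.4 CPM in scWAT and at 589, 234, 244, 529.7 and 454 CPM in vWAT, where mice 2 and 3 were lowest but still above every scWAT value (-2.12 ± 0.17, adjusted p = 4.18e-07). Gstm1, a glutathione transferase, was at 418, 526, 434, 333 and 363 CPM in scWAT and 1089, 826, 1075, 866 and 972 CPM in vWAT (-1.16 ± 0.14, adjusted p = 4.78e-05), also without overlap. Other genes among the 15 most clearly higher in vWAT were Akr1c13 (an aldo-keto reductase, -2.04), Pcbd1 (which recycles the cofactor tetrahydrobiopterin, -1.38), Wfdc17 (-2.09) and Wfdc21 (-1.04), secreted WAP-domain proteins, the lysosomal proteases Lgmn (-1.51) and Ctsl (-1.08), and the myeloid genes S100a8 (-2.08), Ms4a7 (-2.0), C3ar1 (-2.19) and Fcer1g (-1.20). Of the 15, the myeloid genes S100a8, Ms4a7, C3ar1 and Fcer1g lost their call without the block (adjusted p = 0.183, 0.184, 0.137 and 0.113).

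The metallothionein genes Mt1 and Mt2, neighbours on chromosome 8 that encode small proteins binding zinc and copper, were both higher in vWAT. Their promoters are shown because the pair moved together, with the core of the metal response element in capitals, the site through which metal-activated transcription of these genes is known to run (TGCACNC or TGCGCNC, either strand, RefSeq, GRCm38.p6, plus strand, 250 bases before to 50 after the start, minus-strand matches shown as their reverse complement).
Mt1, chr8:94178839-94179138: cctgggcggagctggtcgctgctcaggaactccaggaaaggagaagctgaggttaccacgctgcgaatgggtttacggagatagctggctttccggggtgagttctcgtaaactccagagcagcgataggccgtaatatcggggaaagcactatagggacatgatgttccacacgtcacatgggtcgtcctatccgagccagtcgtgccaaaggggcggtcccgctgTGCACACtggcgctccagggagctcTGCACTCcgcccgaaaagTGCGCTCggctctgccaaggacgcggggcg
Mt2, chr8:94172368-94172667: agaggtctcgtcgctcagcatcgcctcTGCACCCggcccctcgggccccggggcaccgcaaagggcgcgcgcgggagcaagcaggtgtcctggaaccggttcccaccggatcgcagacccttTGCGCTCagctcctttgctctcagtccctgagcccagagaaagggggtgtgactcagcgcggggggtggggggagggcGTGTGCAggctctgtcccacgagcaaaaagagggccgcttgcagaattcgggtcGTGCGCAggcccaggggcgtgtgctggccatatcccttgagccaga
The windows hold 3 matches for Mt1 and 4 for Mt2, and 25.7% of 32817 promoter windows of the same length held at least 1, 1.97% at least 3 and 0.518% at least 4. No match overlapped another. A match is a run of letters and not a measured site. Mt2 stood at 166, 86.3, 116, 95.4 and 101 CPM in scWAT and 548, 259.6, 381, 348 and 372 CPM in vWAT. Mouse 1 was highest and mouse 2 lowest in both depots, the depots did not overlap, and the difference was -1.69 ± 0.13 (edgeR adjusted p = 3.86e-07). Mt1 was at 655, 375, 461, 357 and 314 CPM in scWAT and 1111, 576, 760.4, 858 and 867 CPM in vWAT. Its depots overlapped, with vWAT higher in 5 of 5 mice and a difference of -0.90 ± 0.14 (adjusted p = 0.000613). Neither call was lost without the block or with any single mouse left out.

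Macrophage genes were higher in vWAT. Of 16 tested general macrophage markers 11 were called higher in vWAT (68.8%, against 5.96% of all genes) and none higher in scWAT (median -1.08). Summed, the 18 markers took 0.103%, 0.109%, 0.0679%, 0.122% and 0.168% of the counts in scWAT and 0.306%, 0.155%, 0.189%, 0.248% and 0.647% in vWAT, higher in vWAT in 5 of 5 mice (exact sign-flip permutation p = 0.0625, the smallest possible). Mouse 5 was the highest in both depots. C1qa, a chain of complement C1q made by tissue macrophages, was at 23.4, 21.2, 30.1, 42 and 49.9 CPM in scWAT and 85.2, 41.9, 75.3, 107 and 158 CPM in vWAT (-1.39 ± 0.19, edgeR adjusted p = 0.000162). Mice ranked the same in both depots but for mice 1 and 3, and the depots overlapped. Folr2, the folate receptor of resident macrophages, stood at 30.8, 21.2, 15.8, 14.6 and 31.2 CPM in scWAT and 61.3, 54.8, 67.8, 68.2 and 91.2 CPM in vWAT, without overlap (-1.54 ± 0.22, adjusted p = 0.000232). Ms4a7 was at 13.2, 9.9, 6.33, 11.3 and 40.6 CPM in scWAT and 56.8, 24.2, 21.1, 53.7 and 205 in vWAT (adjusted p = 4.1e-05). Mouse 5 was far above the other mice in both depots. C1qb (-1.07), C1qc (-1.09) and Adgre1, which encodes the macrophage marker F4/80 (-1.39), were also called, but not without the block (adjusted p = 0.211, 0.109 and 0.158). Without the block 3 of the 16 markers were called, among them C1qa and Folr2 (adjusted p = 0.0369 and 0.00066), and the counts were 6 without mouse 1 and 8 without mouse 5.

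Genes of the lipid-laden macrophages that form around dying adipocytes rested on fewer mice. Trem2, their lipid-sensing receptor, was at 2.93, 2.83, 7.92, 16.2 and 49.9 CPM in scWAT and 43.3, 11.3, 21.1, 21.8 and 217 CPM in vWAT. Mouse 5 was far above the others in both depots, and mice 1 and 2 were under the limit of a count of 0 in scWAT. The log2 difference was -1.84 ± 0.34 (edgeR adjusted p = 0.00325), lost without mouse 5 and without the block (adjusted p = 0.368). Called with it, out of 13 tested, were Gpnmb (-1.91), Atp6v0d2 (-2.61), Lipa (-0.95) and Ctsd (-0.47), genes of lysosomes and lipid handling. These 5 genes were 38.5% of those tested, against 5.96% of all genes. None of the 5 was called without mouse 5 or without the block (adjusted p = 0.157 for Ctsd to 0.241 for Gpnmb among the 4 besides Trem2). Antigen presentation genes of MHC class II were called higher in vWAT for 5 of 7 tested (71.4%, against 5.96% of all genes). Among them were H2-Aa (-0.81), H2-Ab1 (-0.81) and H2-Eb1 (-0.70), and none of the 5 was called without the block (adjusted p = 0.0591, 0.0644 and 0.121 for these genes). Without mouse 1 the count was 2. The vWAT libraries of mice 1 and 4 held the most lymph node stroma counts (181 and 118). The part of such tissue in these genes was not tested. Igkc, the constant region of the kappa light chain made by B and plasma cells, stood at 13.2, 5.66, 11.1, 16.2 and 39 CPM in scWAT and 130.0, 266, 93.4, 173 and 149.5 CPM in vWAT (-3.20 ± 0.42, adjusted p = 0.00516). All vWAT values were above the scWAT values, and the call was lost without mouse 1, whose vWAT library held the most lymph node stroma counts; the part of such tissue was not tested. As an immunoglobulin gene it shares sequence with others, so its counts depend on how reads were divided. Among chemokines, Ccl6 (-1.35) and Ccl7 (-1.22) were called higher in vWAT and Cxcl9 (0.80) higher in scWAT, each lost without the block (adjusted p = 0.112, 0.153 and 0.0667) and Cxcl9 also without mouse 5, and Ccl2 was at -1.21 ± 0.42 (adjusted p = 0.16). Of 15 tested acute phase and complement genes, 4 were called higher in vWAT (26.7%, against 5.96% of all genes), among them Hp (-0.84), C3 (-1.06) and C6 (-1.59). Cfd, described above, was called higher in scWAT (6.67%, against 3.11%). Summed, the list took a mean of 1.31% of counts in scWAT and 1.22% in vWAT, higher in scWAT in 3 of 5 mice. Hp was not called without the block (adjusted p = 0.23), nor C3 without mouse 1.

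Ribosomal protein genes were also on the vWAT side: 21 of 52 were called higher in vWAT (40.4%, against 5.96% of all genes) and none in scWAT (median -0.38, range -1.10 to 0.07). The median was -0.68 in mice 1 and 2 and -0.26 in mice 3, 4 and 5, the groups of library codes named above. Together 53 such genes took 2.7%, 2.75%, 3.41%, 3.51% and 3.48% of the counts in scWAT and 4.2%, 3.85%, 3.87%, 4.68% and 4.37% in vWAT, higher in vWAT in 5 of 5 mice and without overlap. In scWAT the share was lowest in mice 1 and 2, and whether library handling had a part in this was not tested. Rps12, of the small subunit, was at 204, 182, 359, 356 and 290.1 CPM in scWAT and 607, 592, 553, 705 and 568 CPM in vWAT, with mouse 2 the lowest in scWAT (-1.10 ± 0.16, edgeR adjusted p = 0.000313). Rpl30 (-0.70) and Rps20 (-0.78) were called too. The count fell to 4 without mouse 1, 7 without mouse 5 and 6 without the block, and was 9 in mice 1, 2 and 3, and many ribosomal protein genes have pseudogenes that can take part of their reads.

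Matrix genes were divided between the depots. Of 14 tested collagens 5 were higher in scWAT (35.7%, against 3.11% of all genes) and 2 in vWAT (14.3%, against 5.96%). Their median was 0.24, and -0.06 in mice 1, 2 and 3. Col3a1, a fibrillar collagen, was at 1298, 1846, 906, 1029 and 1441 CPM in scWAT and 871, 911, 568, 805 and 915 CPM in vWAT, higher in scWAT in 5 of 5 mice with overlapping ranges (0.72 ± 0.13, edgeR adjusted p = 0.00146). Col1a1 (0.92), Col1a2 (0.65) and Col6a3 (0.81) were called in the same direction, Col1a2 not without the block (adjusted p = 0.0714) or without mouse 1, 2, 3 or 5. Type VI chains were called in both directions, since Col6a1 was higher in vWAT (-0.45 ± 0.14, adjusted p = 0.0473, and 0.171 without the block). Col14a1, which sits on the surface of collagen fibrils, was also higher in vWAT. It was at 20.5, 9.9, 7.92, 12.9 and 9.36 CPM in scWAT and 52.3, 33.9, 36.1, 45 and 23.9 CPM in vWAT, without overlap (-1.58 ± 0.25, adjusted p = 0.000684). Fn1, the gene of fibronectin, stood at 151, 171, 45.9, 79.2 and 134 CPM in scWAT and 297, 266, 191, 221 and 303 CPM in vWAT, also without overlap (-1.17 ± 0.17, adjusted p = 0.000341). Of 40 other matrix genes tested, 3 were higher in scWAT (7.5%, against 3.11% of all genes) and 8 in vWAT (20.0%, against 5.96%), with a median of -0.09. Without the block 2 and 2 were called, and without mouse 1 or mouse 4 the vWAT count was 4. Penk, the gene of proenkephalin and a marker of a subset of fat progenitors, was at 0, 8.49, 12.7, 0 and 7.8 CPM in scWAT and 70.2, 80.6, 46.7, 92.9 and 28.4 CPM in vWAT (-3.32 ± 0.66, adjusted p = 0.0333, lost without mouse 2 or 5). Its depots did not overlap. S100b, expressed by Schwann cells and adipocytes, was higher in scWAT (1.67 ± 0.34, adjusted p = 0.00438).

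The genes that define depot identity were mostly too low for the test, so their counts are given as a description. Of 47 developmental transcription factors 5 were tested and none was called by edgeR (DESeq2 also called 0, and 1 had a p under 0.05 before adjustment). Of 16 mesothelial markers only Cldn15, a claudin found in several epithelia, was tested. It was higher in scWAT (0.58 ± 0.18, edgeR adjusted p = 0.0484) and lost its call without the block (adjusted p = 0.112) and with any single mouse left out. Hoxc10, a homeobox gene of the posterior body, gave 10, 14, 3, 9 and 5 counts in scWAT of mice 1 to 5 and 0 in all 5 vWAT libraries, at least 13.8-fold higher in scWAT when 3 counts over the group are set for vWAT. Tbx15, a T-box factor known from subcutaneous fat, gave 6, 14, 10, 12 and 1 counts in scWAT and 0, 0, 0, 0 and 2 in vWAT, a ratio of summed CPM of 21.7 (95% interval 5.65 to 185, counting error only). Hoxa10 and Shox2 were chosen after their values were seen. Hoxa10 gave 8, 13, 11, 6 and 10 counts in scWAT and 0 in every vWAT library (at least 16.2-fold), and Shox2 gave 9, 5, 8, 12 and 7 and 0, 0, 0, 0 and 1. Hoxa5 showed no such split, with 3, 6, 5, 0 and 2 counts in scWAT and 0, 3, 7, 1 and 1 in vWAT.

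On the vWAT side, Wt1, a transcription factor of the mesothelium and of visceral progenitors, gave 6, 1, 3, 2 and 1 counts in vWAT and 0 in all scWAT libraries (at least 4.29-fold). Tcf21, another visceral progenitor factor, gave 2, 2, 2, 9 and 5 counts in vWAT and 0 in scWAT (at least 6.6-fold). At such counts single libraries are near the limit of a count of 0. Of the mesothelial markers, Upk3b gave 11, 3, 11, 16 and 8 counts in vWAT and 1 count in scWAT in all. The ratio was 48.5 (95% interval 8.31 to 1956), and this and the next intervals hold counting error only. Msln gave 6, 2, 4, 8 and 3 counts in vWAT and 0 in scWAT (at least 7.59-fold). The other untested markers of the list also had more counts in vWAT, with intervals that include 1 for Lrrn4 (0.405 to 26), Krt7 (0.321 to 10.6) and Gpm6a (0.983 to 3.29). Mouse 4, whose vWAT library held 414 counts of epididymis and testis genes, gave 10 of the 18 Krt19 counts in vWAT. For Krt18 it gave 13 of 19. The part of that tissue was not tested. Summed with Cldn15, the 16 markers gave 59, 57, 38, 42 and 59 counts in scWAT and 113, 42, 71, 126 and 75 in vWAT, higher in vWAT in 4 of 5 mice as a share of counts (exact permutation p = 0.125). Col6a5, a collagen VI chain chosen after its values were seen, gave 32, 13, 4, 20 and 25 counts in vWAT and 0 in scWAT (at least 31-fold).

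Beige fat genes were sparse, and their sum was higher in scWAT in 5 of 5 mice, though not every gene followed. Ucp1, the uncoupling protein that makes heat in brown and beige adipocytes, gave 9, 5, 3, 5 and 3 counts in scWAT of mice 1 to 5 and 0 in all vWAT libraries (at least 8.41-fold). Cidea, a lipid droplet protein of the same cells, gave 64, 9, 49, 14 and 24 counts in scWAT and 3, 4, 3, 0 and 2 in vWAT. These did not overlap, and the ratio was 13.5 (95% interval 7.5 to 26.6, counting error only). Ppargc1a, a coactivator of mitochondrial genes, gave 6, 8, 14, 8 and 9 and 4, 8, 3, 12 and 1 counts, whose ranges overlapped. Among 16 beige genes 4, not including Ucp1, Cidea or Ppargc1a, passed the filter on low counts. All 4 had a positive log2 difference (0.16 to 2.80). None was called by edgeR (DESeq2 called 2, and 2 had a p under 0.05 before adjustment). The median of the 4, 2.30, fell to 0.61 in mice 1 and 5. Together the 16 took a mean of 0.0880% of counts in scWAT and 0.0199% in vWAT (exact sign-flip permutation p = 0.0625, the smallest possible). In scWAT of mice 1 to 5 they gave 421, 248, 601, 1253 and 292 counts, mostly from genes other than Ucp1 and Cidea. Mouse 4, whose scWAT library held the most muscle counts, was highest at 0.203%, and the part of muscle was not tested. Some genes of the list had more counts in vWAT. Elovl3, a fatty acid elongase chosen after its values were seen, gave 0, 0, 0, 0 and 1 counts in scWAT and 0, 0, 15, 1 and 2 in vWAT, most of them in mouse 3. Slc27a2, a fatty acid transporter chosen in the same way, gave 5, 8, 0, 0 and 0 and 0, 0, 36, 20 and 7. The ratio was 4.8 toward vWAT (95% interval 2.62 to 9.51, counting error only), although mice 1 and 2 had counts only in scWAT. Liver genes gave 1020, 1621, 393, 190 and 226 counts in scWAT and 793, 828, 6227, 1936 and 1065 in vWAT. The part of liver tissue in the Elovl3 and Slc27a2 counts was not tested.

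Trained mice on the same diet, 5 other animals, were compared between depots in the same way. Of 6217 genes tested 643 were called, 278 higher in scWAT (4.47%) and 365 higher in vWAT (5.87%), and 403 or 340 were called without trained mouse 1 or 2. The genes called in both groups of mice numbered 285, which is 49.1% of the calls in sedentary mice and 44.3% of those in trained mice, and all 285 had the same direction. Of the 538 sedentary calls that were tested in trained mice, 525 had the same sign there. Agt was at -4.0 in trained mice (-3.06 in sedentary mice), Mmp3 at 3.54 (2.81), Dpt at 1.43 (1.83), Vnn1 at 2.16 (2.89), Mt2 at -1.53 (-1.69), Rbp4 at -1.27 (-1.46) and Penk at -4.44 (-3.32), all called by edgeR in trained mice as well. Respiratory chain genes were called higher in scWAT for 16 of the list in trained mice (25 in sedentary mice) and fatty acid oxidation genes for 13 (8). In the tricarboxylic acid cycle list 5 were called higher in scWAT and 1 in vWAT (11 and 1 in sedentary mice), and of mitochondrially encoded genes 5 and 1 (8 and 0). Ribosomal protein genes were called higher in vWAT for 23 (21). Macrophage markers were called higher in vWAT for 5 (11). These list counts stand without the number tested in trained mice, so they are not shares to set against 4.47% and 5.87%. Whether a list differed between both groups of mice was not tested. C3ar1 was at -0.87 (edgeR adjusted p = 0.102) and C1qa at -0.38 (adjusted p = 0.425) in the trained mice.

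**Figure D5:**
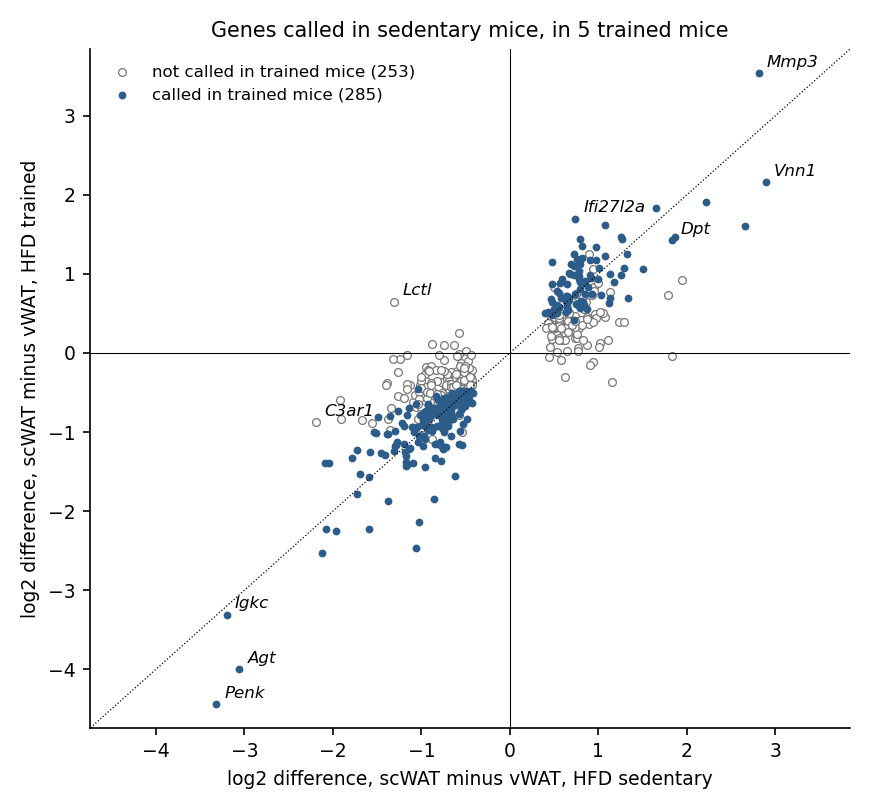
Log2 difference (scWAT minus vWAT) in 5 HFD trained mice against that in the 5 HFD sedentary mice for the 538 genes called in sedentary mice and tested in both, filled where also called in trained mice (285). Nearly all points lie at the lower left and upper right, with the same sign on both axes (525 of 538), and Lctl is the gene farthest into the upper left.

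A direct test of the difference between both depot contrasts called 3 of 7264 genes (0.0413%), while 382 had a p under 0.05 before adjustment. DESeq2 called 2, and edgeR without the block called 0. Lctl, a klotho-family gene known in brown fat, was lower in scWAT than in vWAT in sedentary mice, at 26.4, 26.9, 20.6, 21 and 62.4 CPM against 83.7, 35.5, 55.7, 49.3 and 208 CPM. Mouse 5 was the highest in both depots, and the sedentary depot call was lost without the block (adjusted p = 0.191). Its depot difference was -1.31 ± 0.22 in sedentary and 0.65 in trained mice, a gap of -1.96 ± 0.33 (edgeR adjusted p = 0.033). Ifi27l2a, an interferon-induced gene, was higher in scWAT in both groups of mice, by 0.74 and 1.70 (gap -0.97 ± 0.18, adjusted p = 0.046). Gm14288 was called from 20 counts in sedentary scWAT, in mice 2, 3 and 4, and 0 in sedentary vWAT, so its size is not given. With 1 mouse of either group left out, 0 to 5 genes were called.

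Against sedentary mice on chow, the depot contrast differed for 89 of 7131 genes (1.25%), 63 of them shifted toward scWAT on HFD and 26 toward vWAT. Several of the strongest scWAT genes were in this set. Cfd differed by 1.86 between depots on HFD and by 0.14 on chow (gap 1.72 ± 0.28, edgeR adjusted p = 0.00383). For Ces1f the values were 2.22 and 0.46 (gap 1.75 ± 0.31, adjusted p = 0.00643), and for Dpt 1.83 and 0.51 (gap 1.32 ± 0.26, adjusted p = 0.0121). Gstt1 (gap 1.46 ± 0.28), Fmo1 (1.31 ± 0.24) and Vnn1 (2.14 ± 0.53) were in it as well. Efemp1, the gene of the matrix protein fibulin-3, was at -0.54 on HFD and -2.61 on chow (gap 2.07 ± 0.26, adjusted p = 0.000309), so that its vWAT excess was smaller on HFD (without the block the HFD difference had an adjusted p of 0.0619). The same held for Fn1 (-1.17 and -2.72), Mest (-0.75 and -1.94), Lep (-0.49 and -1.54) and the caveolar gene Cavin3 (-0.40 and -2.23), with gaps of 1.56 ± 0.32, 1.20 ± 0.27, 1.04 ± 0.26 and 1.83 ± 0.28. Retn went from -1.29 on chow to 0.26 on HFD (gap 1.55 ± 0.26). In the other direction Lctl (gap -2.22 ± 0.31), the B-cell gene Cd72 (-4.91 ± 0.67) and Soat1, which esterifies cholesterol (-3.77 ± 0.62), were shifted toward vWAT on HFD. The scWAT libraries of 3 of the chow mice held 484 to 1188 counts of lymph node stroma genes, and without those mice 11 genes were called, 6 of them among the 89. The HFD vWAT libraries of mice 1 and 4, with 181 and 118 such counts, stayed in that fit. Efemp1 (1.55, adjusted p = 0.0291) and Lctl (-2.36, adjusted p = 0.0143) kept their call, while the other genes named here did not, among them Cfd (1.31, adjusted p = 0.211), Ces1f (1.48, adjusted p = 0.204), Dpt (0.74, adjusted p = 0.504) and Cd72 (-2.21, adjusted p = 0.613). With fewer mice some gaps stayed near their size though not called: 1.23 for Fmo1 (adjusted p = 0.109), 1.42 for Fn1 (0.153), 1.35 for Retn (0.292) and -3.04 for Soat1 (0.426). Others became smaller, among them 0.43 for Vnn1 (edgeR adjusted p = 0.953), 0.72 for Mest (0.519) and 0.53 for Lep (0.649). With 1 mouse left out, 33 (HFD mouse 5) to 214 (chow mouse 1) genes were called, and 21 without the block. HFD mice 1 and 3 gave 50 and 57, and chow mice 2, 3, 4 and 5 gave 42, 143, 34 and 40.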

How the data were processed

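Bulk 3′ digital gene expression libraries of scWAT and vWAT were compared. Per the file headers, the authors deposited a whole-number estimated count per gene and library and a log2 value (log2 of CPM plus 1), used only to check the unit. Per the submitters' processing notes, Salmon 0.14.2 and mm10 were used; the sources used here give neither the strand setting nor any use of molecular identifiers. Coordinates are from GENCODE vM21 and promoters from RefSeq (GRCm38.p6).

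Counts were fitted with edgeR 4.0.16 in R 4.3.3 (TMM, filterByExpr by depot, robust quasi-likelihood, mouse as a block); a gene was called at a two-sided Benjamini-Hochberg adjusted p under 0.05. CPM are on total counts, and log2 differences are from the fit. SE were derived from its test, as the absolute log2 difference divided by the square root of the quasi-likelihood F statistic. With the mouse as a block, the p values rest on how far the depot difference varied among mice, and differences in level between mice are taken out. Fits without the block leave those differences in. The pairing comes from animal codes in the titles. Deviations of both depots of a mouse correlated at -0.044 to 0.037, lower than with another mouse in 5 of 5, so unblocked values are given where they end the call of a named gene. Alternatives were DESeq2 1.42.0, limma-voom 3.58.1, other scaling, filters and samples, and each mouse left out.

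Members and lists (52) were chosen with earlier results of these data known. The naming rule takes up to 15 called genes per direction (absolute log2 difference 1 or more, mean log2 CPM 4 or more), up to 5 called members per list, 34 watched genes, and up to 6 genes per difference of contrasts.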

Additional observations from a re-analysis of the deposited data

Results flagged for a closer look

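In groups of 5 libraries, a sample stood apart when its gap to the nearest other, divided by the group's range, was above 0.71. Of 216 gene groups and 14 list groups tested, 28 passed, where chance passes about 1 in 20.

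Mouse 5 was the sample apart for most of them. In vWAT it was the highest for Mmp3 (0.823), Ms4a7 (0.806), C3ar1 (0.77), C1qc (0.786), Adgre1 (0.756), Trem2 (0.844), Atp6v0d2 (0.761), Gpnmb (0.811), Gpd1 (0.874) and Lctl (0.72), and the lowest for Gstt1 (0.847) and Acadvl (0.774). In scWAT it was the highest for S100a8 (0.724), Ms4a7 (0.8), Ctsl (0.76), Trem2 (0.717), Ctsd (0.731), Hp (0.763) and Lctl (0.85). Mouse 4 was the highest for Ndufaf5 in scWAT (0.808) and for Rpl30 (0.821) and Rps20 (0.884) in vWAT, and mouse 2 for Trarg1 in vWAT (0.717). Among genes of other organs, mouse 4 stood apart for skeletal muscle in scWAT (0.837) and for epididymis and testis in vWAT (0.976), mouse 5 for skeletal muscle (0.982) and intestine (0.974) in vWAT, and mouse 3 for liver in vWAT (0.802).

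The depot difference itself differed between HFD sedentary and HFD trained mice (edgeR interaction test) for Lctl (-1.96), Ifi27l2a (-0.97) and Gm14288, whose fitted value of 8.31 rests on 20 counts and is no measure of size. Against chow sedentary mice it differed toward scWAT for Efemp1 (2.07), Cavin3 (1.83), Cfd (1.72), Ces1f (1.75), Dpt (1.32), Vnn1 (2.14), Gstt1 (1.46), Fmo1 (1.31), Fn1 (1.56), Mest (1.20), Lep (1.04) and Retn (1.55), and toward vWAT for Cd72 (-4.91), Lctl (-2.22) and Soat1 (-3.77). Of these genes named against chow mice, only Efemp1 and Lctl kept their call without the chow mice with lymph node reads.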

How the results depend on the processing

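The 581 calls between depots became 370 with DESeq2, 922 without a filter on low counts (a count that includes Gpx5, chosen after its values were seen, with nearly all reads in 1 library), 68 in mice 1 and 2 and 225 to 574 with 1 mouse left out. Fits added after the data had been seen gave 284 in mice 1 and 5 and 254 in mice 1, 2 and 3. Without the replicate block, that is ignoring the pairing by mouse, 283 were called. In HFD trained mice the 643 calls became 343 with DESeq2 and 340 to 674 with 1 mouse left out. The 3 genes whose depot difference differed from trained mice became 0 without the replicate block and 0 to 5 with 1 mouse left out, and the 89 that differed from chow mice became 21 without the block, 11 without the chow mice with lymph node reads and 33 to 214 with 1 mouse left out. Of 108 named genes, 100 were called and none of these reversed. Without the block 65 of the 100 were called, with DESeq2 90 of 98 with a value, on total counts 97, and with 1 mouse left out 80 to 94. Among genes not called, Adipoq (0.01) turned to -0.05 on total counts, -0.03 in mice 3 to 5, -0.05 to 0.08 with 1 mouse left out and -0.02 in mice 1, 2 and 3. Retn (0.26) turned to -0.02 in mice 1 and 2 and -0.04 in mice 1, 2 and 3, and Fasn (-0.10) to 0.34 in mice 3 to 5 and to between -0.29 and 0.20 with 1 mouse left out. The cause of these changes was not tested. At this depth a count of 0 in a library allows up to 3 counts, so a gene with a count of 0 cannot be called absent. The 5 mice per group limit the precision.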
